A study of Mus musculus with 4 samples.

Results

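The 8 genes described here mark conventional dendritic cells, above all the type 1 subset (cDC1): Xcr1, Clec9a, Batf3, Irf8, Zbtb46, Flt3, Itgae and Cd209a. They were taken by symbol from the 32285 genes of each count table, and all 8 were found. Conventional dendritic cells take up antigen and present it to T cells. The cDC1 subset is known for cross-presenting tumor antigens to CD8+ T cells, depends on the transcription factors BATF3 and IRF8, and carries the chemokine receptor XCR1, whose ligand XCL1 is made by natural killer cells and activated CD8+ T cells. CD209a is better known from type 2 and monocyte-derived dendritic cells, so the set reaches beyond cDC1.

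The data are 4 Visium sections. Visium binds RNA to barcoded spots beneath a tissue section, and a unique molecular identifier (UMI) lets each bound molecule be counted once. Female F1 hosts, 8 to 12 weeks old, had received cells of the murine colon carcinoma line MC38 subcutaneously. The 2 CC075F1 hosts were C57BL/6J x CC075/UncJ and the 2 CC080F1 hosts C57BL/6J x CC080/TauUncJ, so all 4 shared a C57BL/6J parent and the same tumor line. Every mouse had received 200 µg of isotype control antibody (clone 2A3) once, at a tumor size of 75 to 110 mm3, and had been killed 48 hours later. The study classes CC075F1 as a responder and CC080F1 as a non-responder to anti-PD-1, and no treated tumor was analysed here.

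The sections held 2710 to 3276 spots under tissue, 82594649 to 146460975 UMIs and a median of 31139 to 41740 UMIs per spot, and CC075F1 replicate 2 was the deepest. The leukocyte gene Ptprc stood at 30.2 to 40.4 CPM (a gene's UMIs scaled to the total UMIs of its section), whereas the epithelial keratins Krt8 and Krt18 were near 0, at 0.0107 to 0.242 CPM. In CC075F1 replicate 2, 28 spots gave over 1% of their UMIs to skin, muscle or fat markers, against 0 or 1 in the other sections. A Visium spot covers several cells, so a gene shared by a spot is not shown to be shared by a cell, and fewer cells of a type cannot be told apart from less RNA per cell.

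Xcr1 and Clec9a, the surface receptors that define cDC1, lie at chr9:123852315-123862029 (minus strand) and chr6:129408862-129424763 (plus strand) of GRCm38. The 250 bases before their RefSeq starts are shown because both genes had a higher level in either CC075F1 section than in either CC080F1 section. Capitals mark GAAA read on either strand, the core of the sites that interferon regulatory factors such as IRF8 bind.
Xcr1 promoter, chr9:123862030-123862279, minus strand: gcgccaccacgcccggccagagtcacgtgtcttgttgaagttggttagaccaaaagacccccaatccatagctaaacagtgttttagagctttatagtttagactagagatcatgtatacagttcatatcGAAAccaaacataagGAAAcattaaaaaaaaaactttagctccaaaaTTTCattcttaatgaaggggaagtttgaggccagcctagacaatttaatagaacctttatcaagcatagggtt
Clec9a promoter, chr6:129408612-129408861, plus strand: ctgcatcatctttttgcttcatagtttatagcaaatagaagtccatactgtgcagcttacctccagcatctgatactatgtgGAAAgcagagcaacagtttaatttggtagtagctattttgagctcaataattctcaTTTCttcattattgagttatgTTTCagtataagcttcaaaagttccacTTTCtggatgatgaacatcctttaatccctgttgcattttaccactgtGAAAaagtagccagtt
GAAA occurred 3 times before Xcr1 and 5 times before Clec9a, and 86.4% of all 32851 promoter windows of this length held it. The interferon-stimulated response element core, a pair of GAAA repeats with 2 free bases between them, was in 2.98% of windows and TGANTCA, the core that BATF and AP-1 factors bind, in 6.75%, and neither was in these 2 windows on either strand. Of the other genes, Batf3 lies on chromosome 1, Irf8 and Cd209a on 8, Zbtb46 on 2, Flt3 on 5 and Itgae on 11. All 8 are protein coding. On the same strand Clec9a overlaps Clec1b and Gm43914, Irf8 overlaps Gm20388 and Zbtb46 overlaps Gm22708. Flt3 and Itgae overlap Gm26597 and Haspin on the other strand.

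Irf8 was the most abundant of the set in every section. Cd209a was the rarest in both CC075F1 sections, whereas in both CC080F1 sections it lay above Xcr1 and Clec9a. Visium libraries count 3′ ends, so 1 molecule gives 1 UMI whatever the length of the transcript, although capture can still differ between genes. Averaged over the 4 sections, the levels were 28.5 CPM for Irf8, 7.52 for Zbtb46, 5.88 for Batf3, 0.641 for Itgae, 0.588 for Xcr1, 0.517 for Clec9a, 0.375 for Flt3 and 0.270 for Cd209a. Irf8 lay above Zbtb46 in every section, whereas the ranges of Zbtb46 and Batf3 overlapped, as did those of neighbours among the 5 rarer genes. No spot held more than 3 UMIs of Xcr1, 2 of Clec9a or 12 of Irf8. Most spots held at least 1 of the 8 genes, 69.0% to 74.6% by section, yet only 3.44% to 6.93% held 3 or more. Spots of at least 10000 UMIs were then thinned to 10000, and the 53 to 205 shallower spots of a section were left out. The share with any of the genes fell to 32.5% to 41.4%. The thinned, or equal-depth, shares below rest on the same spots.

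**Figure D1:**
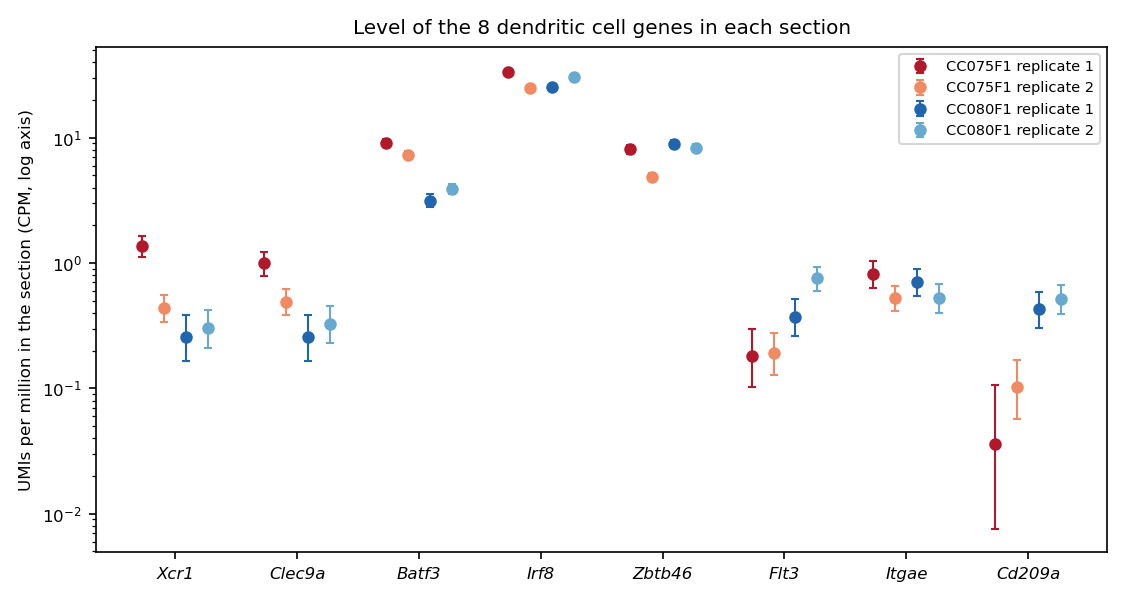
Level of each gene in CPM (log axis) in the 4 sections, one point per section with its exact 95% Poisson interval. Both CC075F1 sections lie above both CC080F1 sections for Xcr1, Clec9a and Batf3, and below them for Flt3 and Cd209a. Zbtb46 was lower in CC075F1 by a margin of 8.05 against 8.28 CPM at its closest.

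The comparison between strains asks whether tumors from both hosts differ in these genes before treatment. Xcr1, Clec9a and Batf3 stood higher in both CC075F1 sections, Zbtb46, Flt3 and Cd209a stood lower, and Irf8 and Itgae overlapped. None of these strain differences passed the test across all genes. As a background, 6.63% of the 15572 genes tested had both CC075F1 sections above both CC080F1 sections, and 30.3% had both below (36.9% in all). CPM carries an offset, since the median gene stood at -0.31 on the log2 scale (CC075F1 minus CC080F1) when libraries were scaled by total UMIs and at -0.02 with TMM, so a low CPM in CC075F1 is the commoner order.

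Xcr1 gave 112 and 64 UMIs in CC075F1 replicates 1 and 2, or 1.36 and 0.437 CPM, and 24 and 34 UMIs in CC080F1, or 0.256 and 0.302 CPM. The groups did not overlap, but CC075F1 replicate 1 stood far above the other CC075F1 section, and the CC075F1 mean of 0.896 ± 0.650 CPM (SD, n = 2) was 3.21 times the CC080F1 mean of 0.279 ± 0.0320. Spots with Xcr1 made up 3.87% and 1.89% of CC075F1 sections and 0.825% and 1.01% of CC080F1 sections.

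Clec9a, the receptor by which cDC1 sense actin exposed on dead cells, gave 82 and 72 UMIs in CC075F1 and 24 and 37 in CC080F1, or 0.993, 0.492, 0.256 and 0.328 CPM. The mean was 2.54 times higher in CC075F1. Thinned to 10000 UMIs, the share of spots with Clec9a was 0.863% and 0.473% in CC075F1 and 0.219% and 0.505% in CC080F1, so the groups overlapped.

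Batf3, the transcription factor that cDC1 require and that activated T cells also express, showed the most even separation. It gave 756 and 1071 UMIs in CC075F1 (9.15 and 7.31 CPM) against 294 and 442 in CC080F1 (3.14 and 3.92 CPM). Spots with Batf3 made up 23.2% (95% exact binomial interval 21.7 to 24.9) and 26.0% (24.5 to 27.5) of CC075F1 sections and 9.97% (8.89 to 11.1) and 12.3% (11.2 to 13.5) of CC080F1 sections. At equal depth the shares were 9.45% and 6.93% against 3.73% and 3.67%, and the groups still did not overlap. These intervals cover counting error alone.

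Irf8, a factor of cDC1 and plasmacytoid cells that is also found in monocytes, macrophages and B cells, differed little. Its levels were 33.4 and 24.9 CPM in CC075F1 and 25.2 and 30.7 CPM in CC080F1, with 53.5% to 60.7% of spots positive. Zbtb46, a factor of conventional dendritic cells and endothelium, stood at 8.05 and 4.84 CPM in CC075F1 and 8.92 and 8.28 CPM in CC080F1. Itgae, which encodes the CD103 integrin of some dendritic and tissue-resident T cells, stood at 0.811 and 0.526 against 0.705 and 0.524 CPM.

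Flt3, the receptor for the growth factor on which dendritic cell precursors depend, stood lower in CC075F1. It gave 15 and 28 UMIs in CC075F1 (0.182 and 0.191 CPM) and 35 and 85 in CC080F1 (0.374 and 0.754 CPM). Cd209a, a C-type lectin, was near the counting floor in CC075F1, with 3 and 15 UMIs (0.0363 and 0.102 CPM), against 40 and 58 UMIs (0.427 and 0.515 CPM) in CC080F1. Counting error spans 0.00749 to 0.106 CPM for the 3 UMIs and 0.0573 to 0.169 CPM for the 15 (exact 95% Poisson), below both CC080F1 values. These intervals hold no variation between mice. The gene passed the filter on low counts only through CC080F1.

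In edgeR's quasi-likelihood test with Benjamini-Hochberg adjustment, 0 of the 8 genes were called, against 14 (0.0899%) of the 15572 genes tested. Of the 15572 genes 846 had an unadjusted p under 0.05 in this test, among them Batf3, Xcr1, Clec9a and Cd209a. That total is near what would arise if no gene differed, so an unadjusted p was not read as a call. The p of Cd209a is further limited because the gene passed the filter only through CC080F1. The log2 difference, CC075F1 minus CC080F1, was 1.52 (SE 0.27, adjusted p = 0.179) for Batf3, 1.86 (SE 0.53, adjusted p = 0.563) for Xcr1 and 1.57 (SE 0.46, adjusted p = 0.594) for Clec9a. It was -2.26 (SE 0.68, adjusted p = 0.625) for Cd209a and -1.27 (SE 0.57, adjusted p = 0.830) for Flt3. Irf8 (0.35), Itgae (0.41) and Zbtb46 (-0.14) had adjusted p-values of 0.830 or more. With 2 sections a group, an exact permutation test of 1 gene cannot go below 0.333. Batf3 passed the threshold under DESeq2 (adjusted p = 5.51e-05) and without CC080F1 replicate 2 (adjusted p = 0.0233).

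Other genes of the dendritic lineage were not called between the strains. Of 11 further cDC1 genes 0 were called, and their median log2 difference was 0.11 against -0.02 over all genes. Cadm1, an adhesion molecule of cDC1, lay higher in CC075F1 (18.6 and 12.7 against 10.6 and 7.12 CPM, adjusted p = 0.257 in edgeR), while Tlr3, Wdfy4, Naaa and Rab7b differed by between -0.28 and 0.38 on the log2 scale. Others had lower levels there: Sept3 stood at 0.0121 and 0.0478 against 0.171 and 0.266 CPM (adjusted p = 0.756), Btla at -0.83 and Snx22 at -0.53 on the log2 scale (adjusted p = 0.830 for both). Like Cd209a, Sept3 passed the filter on low counts only through CC080F1. Among genes of mature, migrating dendritic cells Apol7c stood at 1.42 and 0.287 CPM in CC075F1 and 0.0427 and 0.106 in CC080F1 (adjusted p = 0.347 in edgeR), but only 2 of the 9 tested had a positive difference. Apol7c passed the filter only through CC075F1. The median of the 9 was -0.06, with Ccr7 at -0.53, Fscn1 at -0.44, Il4i1 at -0.34 and Cacnb3 at -0.33. No type 2 (0 of 10), migratory (0 of 9 tested), plasmacytoid (0 of 8) or developmental (0 of 11) gene was called. The type 2 list leaned the other way from Cd209a, with 8 of 10 positive and a median of 0.33. The median was -0.07 for plasmacytoid genes (4 of 8 positive) and 0.15 for developmental genes (7 of 11 positive). Markers of T cells, which can express Batf3 and Itgae, moved with Batf3: 1 of 10 was called higher in CC075F1 (Cd3g), their median was 1.62, and their summed level was 86.7 and 67.6 CPM against 42.2 and 45.1. Macrophage markers stood higher in CC075F1 too (4257 and 3222 against 2784 and 2729 CPM, 8 of 10 positive, median 0.53, 0 called). So did the 4 tested B cell markers (median 1.09, 0 called). Regulatory T cell (median -0.18, 2 of 5 positive) and natural killer markers (-0.26, 2 of 6 positive) leaned lower. Monocyte and endothelial markers lay lower in CC075F1, as Cd209a and Zbtb46 did, with 0 of 7 and 0 of 8 called. Their summed levels were 404 and 335 against 559 and 842 CPM for monocytes (1 of 7 positive), and 109 and 94.4 against 189 and 144 CPM for endothelium (1 of 8 positive). The part of these cells in the differences of Batf3, Cd209a and Zbtb46 was not tested.

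**Figure D2:**
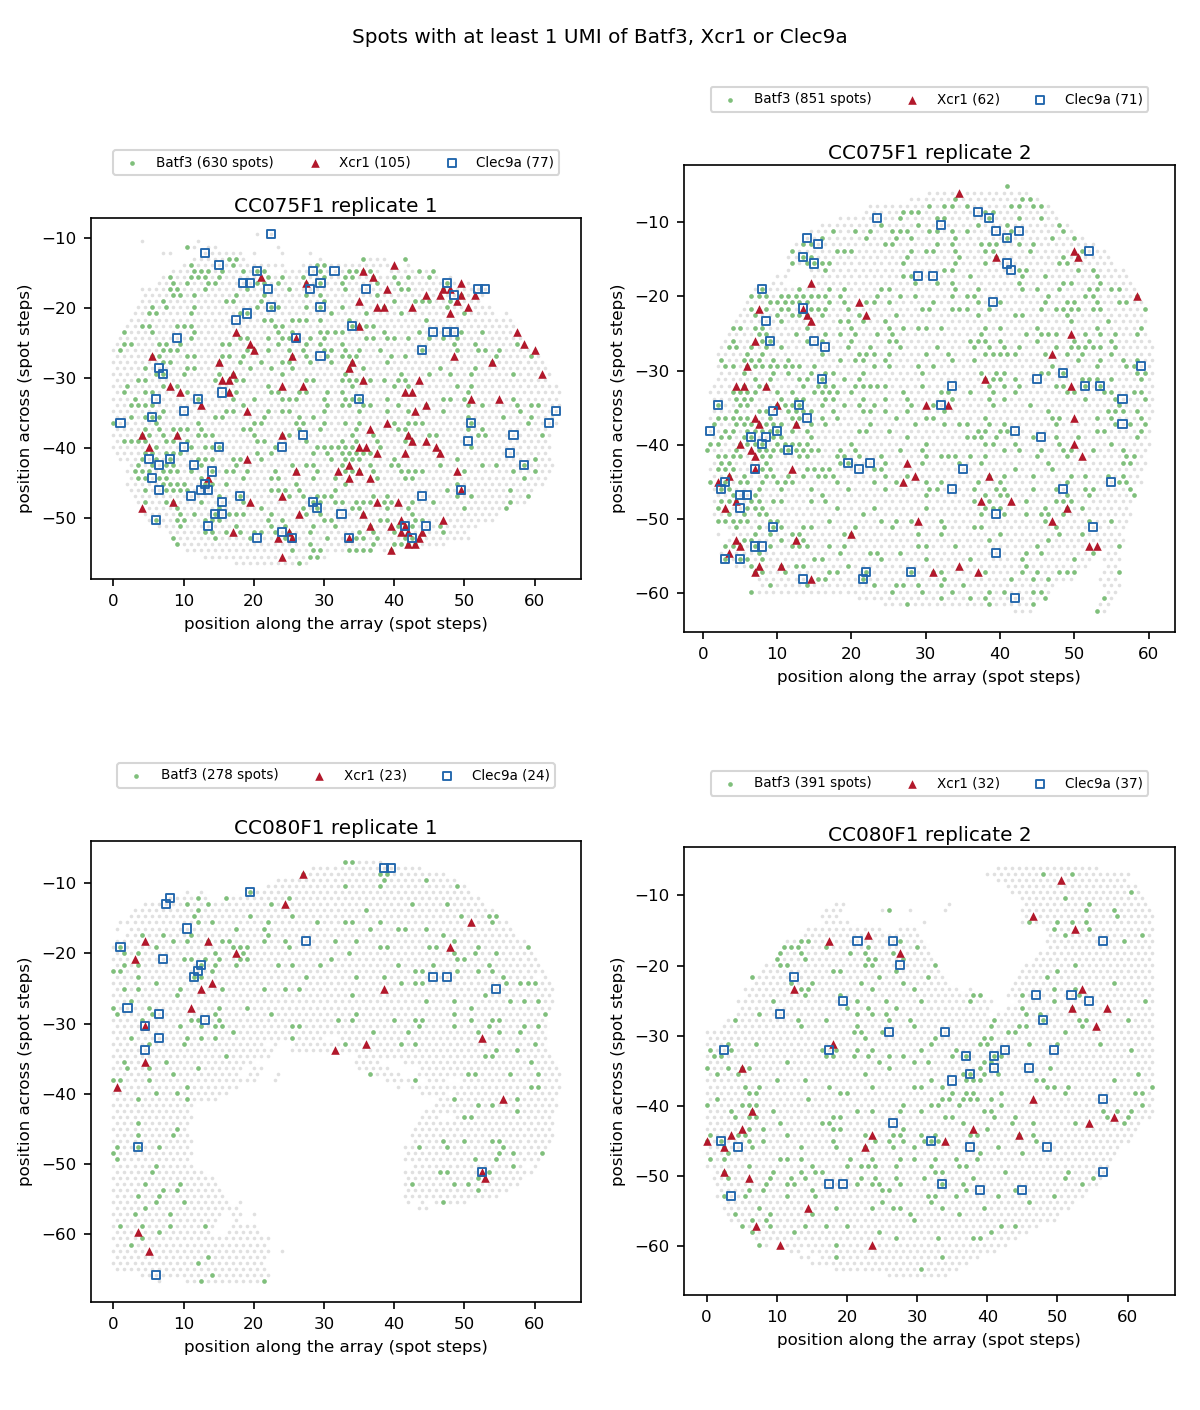
Position of every spot under tissue (grey) in the 4 sections, in spot steps, with spots holding Batf3 (green), Xcr1 (red triangles) or Clec9a (blue squares). Batf3 spots number 630 and 851 in CC075F1 and 278 and 391 in CC080F1. Few Xcr1 and Clec9a symbols coincide.

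Which of the genes mark the same places was asked by co-occurrence at equal depth, since deep spots hold more of every gene. In the spots with a gene, the UMIs of each other gene were set against those expected from spots without it in the same of 10 classes of spot depth, section by section. The log2 ratio of observed to expected was averaged over the strains and tested in limma with Benjamini-Hochberg adjustment over all genes. Classes with at least 10 spots of each kind were usable in all sections for Batf3, Irf8, Zbtb46 and, from 11 to 37 spots a section, Itgae. For the 5 rarer genes, Itgae included, values come from a setting chosen after seeing the data that asks for 1 spot with the gene.

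Batf3 and Irf8 were each called higher in the spots of the other, and no other ordered pair was called. In Batf3 spots the observed and expected Irf8 UMIs were 789 and 671, 1286 and 894, 272 and 246, and 566 and 462 in CC075F1 replicates 1 and 2 and CC080F1 replicates 1 and 2. Irf8 was thus above expectation in 4 of 4 sections, by 0.30 on the log2 scale (SE 0.05, adjusted p = 0.00299 in limma). In Irf8 spots Batf3 was likewise above expectation in every section (log2 0.41, SE 0.08, adjusted p = 0.0420 in limma). The second call was lost without CC075F1 replicate 2 (adjusted p = 0.0909), without CC080F1 replicate 2 (0.0647) and in interior spots alone (0.0696). These were 2 of the 22 ordered pairs that the planned setting could test. As a background, 3.61% of 14755 genes were called in Batf3 spots and 1.65% of 15987 in Irf8 spots, 2.66% and 1.34% of them higher. No pair differed between the strains (0 of 22 in limma).

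Clec9a and Xcr1 were each higher than expected in Batf3 spots in all 4 sections, but on few UMIs. Clec9a gave 27 observed against 18.2 expected, 27 against 16.2, 5 against 2.09 and 7 against 4.61. Xcr1 gave 38 against 24.1, 22 against 15.4, 3 against 2.43 and 10 against 3.22. The average log2 ratios were 0.73 for Clec9a (SE 0.29, adjusted p = 0.199 in limma) and 0.72 for Xcr1 (SE 0.30, adjusted p = 0.229). Xcr1 in Batf3 spots was called without CC080F1 replicate 1 (1.03, adjusted p = 0.0337 in limma). Irf8 in Clec9a spots came close to the threshold (0.45, SE 0.10, adjusted p = 0.0593 in limma). Xcr1 and Clec9a themselves shared 9 spots in the 4 sections where 5.21 were expected from their shares within each depth class, a ratio of 1.73 with a 95% Poisson interval of 0.791 to 3.28. At this depth a ratio of 1 could not be told from one of 3.

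In Zbtb46 spots no gene of the set was called. Xcr1 was at -0.09, Clec9a at 0.05, Irf8 at 0.06, Batf3 at 0.10, Itgae at 0.38 and Flt3 at 0.78 on the log2 scale, with adjusted p-values of 0.373 or more in limma, and 0.884% of 15159 genes were called. The ratios of shared spots were 1.04 for Zbtb46 and Xcr1, 0.990 for Zbtb46 and Clec9a, 1.05 for Zbtb46 and Batf3 and 1.35 (interval 0.996 to 1.79) for Zbtb46 and Flt3. Among 28 pairs, intervals that lay above 1 included Flt3 and Cd209a, with 8 shared spots where 2.22 were expected (ratio 3.60, interval 1.55 to 7.10), 6 of them in CC080F1 replicate 2, and Clec9a and Itgae, with 11 where 4.83 were expected (2.28, interval 1.14 to 4.07). Batf3 had such an interval with Xcr1 (67 spots, 1.34, interval 1.04 to 1.70), Clec9a (64 spots, 1.42, 1.09 to 1.81), Flt3 (34 spots, 1.55, 1.07 to 2.16) and Irf8 (1456 spots, 1.09, 1.04 to 1.15), and Irf8 with Flt3 (108 spots, 1.22, 1.002 to 1.48). The intervals cover counting error of the shared spots alone, pool the sections and were not adjusted for the number of pairs.

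The nearest neighbours were looked at too, because a spot boundary can part a cell from its neighbour. In spots without Batf3 that touch a Batf3 spot, 122 Xcr1 UMIs were found where 68.9 were expected from spots of like depth that touch none. That ratio of 1.77 (95% Poisson interval 1.47 to 2.11) came from 58 against 35.2, 37 against 17.9, 12 against 8.24 and 15 against 7.57 UMIs in the 4 sections. The neighbour intervals pool the sections and cover counting error of the observed UMIs alone. They take the expected UMIs as exact, although these rest on few counts for the rarer genes, so the intervals are too narrow. Clec9a next to Batf3 spots had a ratio of 1.33 (interval 1.08 to 1.61) and was above expectation in 3 of 4 sections, CC080F1 replicate 2 being the exception. In the other direction, Batf3 next to Xcr1 spots had a ratio of 1.25 (interval 1.12 to 1.39, 4 of 4 sections). Clec9a next to Xcr1 spots was found at 25 UMIs against 24.5 expected (ratio 1.02), and Xcr1 next to Clec9a spots at 34 against 25.9 (ratio 1.31, interval 0.909 to 1.83), each above expectation in 3 of 4 sections. Intervals above 1 were not particular to Batf3, Xcr1 and Clec9a. Next to Zbtb46 spots, Xcr1 had a ratio of 1.38 (interval 1.16 to 1.63, above expectation in 2 of 4 sections) and Cd209a 1.70 (1.34 to 2.14, 4 of 4). Batf3 next to Cd209a spots had 1.72 (1.42 to 2.07, 3 of 3). Clec9a was at 1.00 (0.832 to 1.19) next to Zbtb46 spots and at 0.181 (0.0219 to 0.653, 2 UMIs) next to Irf8 spots. The latter rests on 2 sections, CC075F1 replicate 1 (1 UMI against 5.38 expected) and CC080F1 replicate 1 (1 against 5.69). In CC075F1 replicate 1 the same 5.38 UMIs were expected for Xcr1. With so few counts behind the expected values, no depletion can be read from this ratio.

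**Figure D3:**
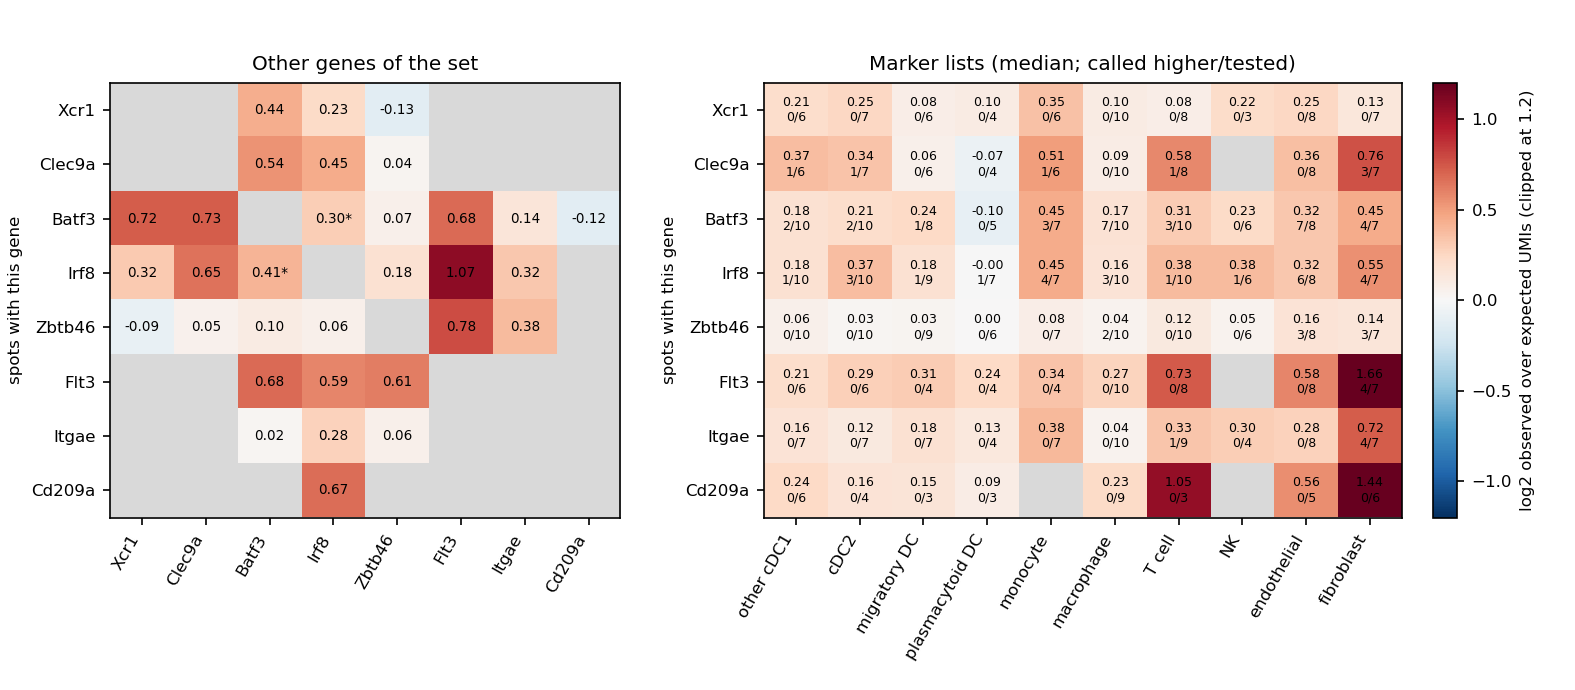
Co-occurrence at equal depth as average log2 observed over expected UMIs, with rows for spots holding each gene. The left panel has the other genes of the set, where an asterisk marks an adjusted p under 0.05 and grey a pair too sparse to test, and the right panel the median of each marker list with the number called higher over the number tested. Irf8 and Batf3 carry the 2 asterisks, and the Zbtb46 row runs from -0.09 for Xcr1 to 0.78 for Flt3, with none.

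The leading genes in the spots of each member were named by a fixed rule: the 3 called genes with the highest lowest-section value and at least 10 expected UMIs in every section. The rule itself favours genes above expectation in every section. Xcr1 and Clec9a had the same leader, Cxcl9, the interferon-γ-induced chemokine that draws CXCR3+ T cells. In Xcr1 spots Cxcl9 was observed at 1571, 1614, 93 and 284 UMIs where 1038, 912, 40.3 and 134 were expected, an average log2 ratio of 0.92 (SE 0.06, adjusted p = 1.23e-05 in limma). In Clec9a spots its ratio was 1.07 (SE 0.06, adjusted p = 1.02e-05). Cxcl9 was also above expectation in Batf3 (0.63), Irf8 (0.62), Itgae (0.73) and Zbtb46 (0.19) spots, and all of these were called. The other leaders were Serpina3g (0.85), one of a cluster of similar serpin genes among which reads can be split, and Fgl2 (0.57, adjusted p = 0.0422 in limma, and 0.0565 with depth matched within edge and interior) in Xcr1 spots, and Mgp (0.90), a matrix protein, and Igtp (0.75), an interferon-induced GTPase, in Clec9a spots. In Clec9a spots 3 of 7 fibroblast markers were called higher (Col1a2 0.81, Postn 0.81, Bgn 0.77) and 1 lower (Dcn -0.17). Of 6 monocyte markers 1 was called higher (Ly6c2 1.03) and 1 lower (Fn1 -0.27), and Thy1 (0.78) was the 1 T cell marker of 8 called. In Xcr1 spots no fibroblast, monocyte or T cell marker was called. As a background, 0.205% of 11733 genes were called in Xcr1 spots and 1.16% of 11659 in Clec9a spots.

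Batf3 spots were led by Adra2a (0.82), Calhm6 (0.63) and Xcl1 (0.63), the ligand of XCR1. Xcl1 was above expectation in each section, at 96 UMIs against 62.0, 177 against 98.9, 35 against 23.5 and 176 against 125 (SE 0.11, adjusted p = 0.00299 in limma). In the spots of Xcr1 itself Xcl1 was at 0.33 (SE 0.27, adjusted p = 0.802) from 2 to 16 UMIs a section, and in Clec9a spots at 0.99 (SE 0.25, adjusted p = 0.110). Il12rb1, a subunit of the interleukin-12 receptor, was also called higher in Batf3 spots (0.31, adjusted p = 0.00943 in limma). T cell markers were called in 3 of 10 (Lck 0.48, Cd8b1 0.48, Thy1 0.33), macrophage markers in 7 of 10 (C1qa 0.18, Csf1r 0.20) and endothelial markers in 7 of 8 (Emcn 0.44, Kdr 0.40). Fibroblast markers were called in 4 of 7 (Col1a2 0.52, Postn 0.45) and monocyte markers in 3 of 7 (Ly6c2 0.61, Plac8 0.45). Only 2 of 10 further cDC1 genes were, Naaa (0.21) and Ppt1 (0.17). The part of these cells in the Batf3 signal was not tested.

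Irf8 spots were led by Chil3 (0.86), a chitinase-like protein of monocytes and macrophages, Ccl22 (0.84) and Ccl17 (0.81), chemokines of mature and type 2 dendritic cells. Beside them 4 of 7 monocyte markers (Ly6c2 0.69, Plac8 0.45), 6 of 8 endothelial and 4 of 7 fibroblast markers were called, and 1 of 10 further cDC1 genes (Naaa 0.18). Ccl22 was also called in Batf3 spots (1.00, SE 0.20, adjusted p = 0.00943 in limma). Zbtb46 spots had smaller differences, led by Ctsk (0.46), Cpxm1 (0.42) and Timp3 (0.25), with 3 of 8 endothelial markers (Kdr 0.24, Emcn 0.24) and 3 of 7 fibroblast markers called, and 0 of 10 further cDC1 genes.

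Flt3 spots lay in collagen-rich tissue. Its leaders were Col1a2 (1.86, SE 0.14, adjusted p = 0.000792 in limma), Col1a1 (1.82) and Postn (1.77), all products of fibroblasts, and 18 of the 20 genes called (0.182% of 11017) were higher. With depth matched within edge and within interior spots, Col1a2 in Flt3 spots was at 1.45. Itgae spots were led by Postn (0.82), Bgn (0.74) and Col15a1 (0.68), with 0.567% of 12164 genes called, and Thy1 (0.49) was the 1 T cell marker of 9 called. For Cd209a, with 3 spots in CC075F1 replicate 1, 0 of 8142 genes were called (0%). No gene was called for a strain difference in the spots of Xcr1, Clec9a, Batf3, Irf8, Zbtb46, Flt3 or Cd209a in limma, whereas 20 of 12164 (0.164%) were in those of Itgae. In the planned setting 0.191% of 11000 genes were called in Itgae spots and 0.109% for the strain difference.

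**Figure D4:**
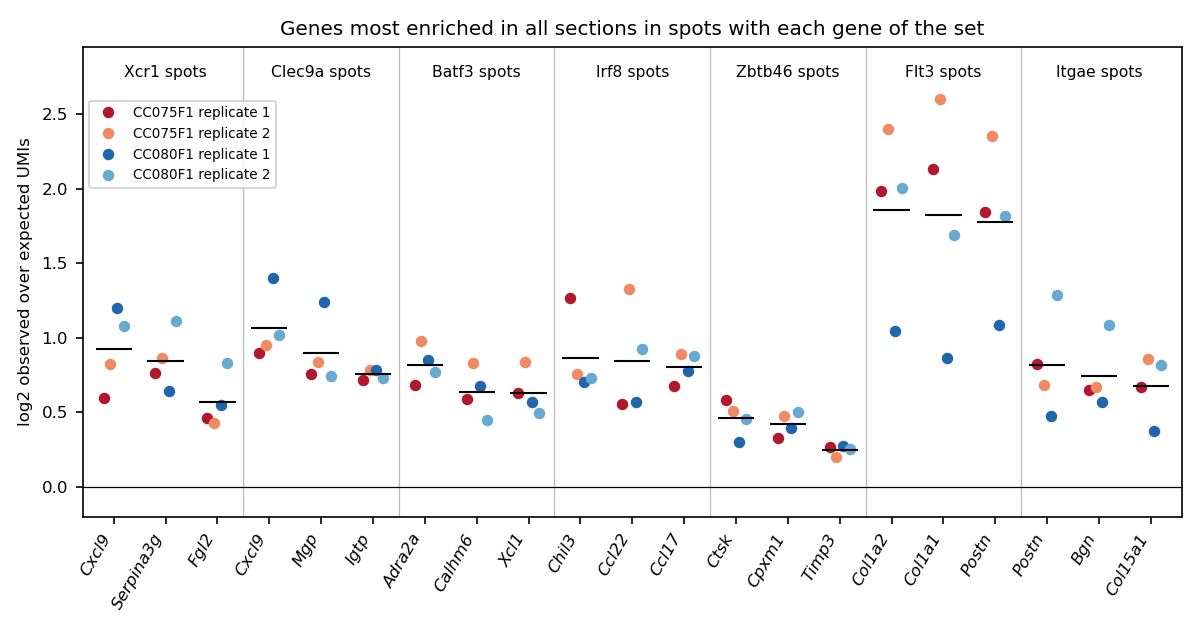
The 3 leading genes, by highest lowest-section value, in the spots of each member except Cd209a, which had none called. Shown are log2 observed over expected UMIs in each section (points) with the average over the strains (bars). The points run from 0.20 for Timp3 in Zbtb46 spots to 2.60 for Col1a1 in Flt3 spots, both in CC075F1 replicate 2. That all lie above 0 is favoured by the rule that chose the genes.

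Distance from the tissue edge was counted in spot steps to the nearest position off tissue, and spots up to 3 steps away were called edge (568, 665, 880 and 648 spots in CC075F1 replicates 1 and 2 and CC080F1 replicates 1 and 2). Tissue cut by the rim of the capture grid did not count as edge there. In the same order, 25, 1, 75 and 58 tissue spots lay on that rim. Borders of holes did count, with 3, 8, 29 and 2 hole positions. The part of the rim in the strain contrasts of edge values was not tested. Flt3 and Irf8 were higher at the edge. These were 2 of the 8 genes, where 5.10% of 15089 genes were called and 4.25% called higher. Zbtb46, Batf3 and Itgae were not called, with averages of 0.02, 0.02 and -0.06 on the log2 scale over sections that went either way. The edge to interior ratio of Zbtb46 was 1.38 (95% interval 1.12 to 1.68) in CC075F1 replicate 2 and 0.946 to 0.991 in the other sections, and that of Itgae ran from 0.514 to 1.498.

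Flt3 stood at 0.535 CPM at the edge and 0.126 in the interior of CC075F1 replicate 1, 1.05 and 0.0628 in CC075F1 replicate 2, 0.515 and 0.316 in CC080F1 replicate 1, and 1.57 and 0.601 in CC080F1 replicate 2. It was higher at the edge in 4 of 4 sections, by an average log2 of 2.07 (SE 0.38, adjusted p = 0.0188 in edgeR). The call was lost without CC075F1 replicate 2, where the ratio was 16.7 (adjusted p = 0.287, log2 1.55), and with an edge of 5 steps (adjusted p = 0.0553). Irf8 was 43.5 against 31.8, 39.3 against 22.7, 24.5 against 25.5 and 33.5 against 30.1 CPM, an average log2 of 0.26 (SE 0.06, adjusted p = 0.0475 in edgeR), with CC080F1 replicate 1 on the other side. That call was lost without CC075F1 replicate 1, CC075F1 replicate 2 or CC080F1 replicate 2 (adjusted p = 0.0608, 0.316 and 0.230), and with an edge of 2 or 5 steps (0.0948 and 0.0625).

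Cd209a lay higher at the edge in 4 of 4 sections (log2 1.63, SE 0.43, adjusted p = 0.0702 in edgeR) on 2 edge and 1 interior UMIs in CC075F1 replicate 1 (ratio 12.7, 95% interval 0.663 to 751). Both CC075F1 sections had more Xcr1, Clec9a and Batf3 at the edge, and the CC080F1 sections lay lower. Irf8, Flt3 and Cd209a also had both CC075F1 ratios above both CC080F1 ratios. The share of all genes with this order was not counted. The strain difference of the edge effect was positive in 7 of the 8 members. It was also positive in 8 of 8 endothelial, 6 of 6 natural killer and 9 of 10 macrophage genes, but in 6 of 11 developmental genes. The edge to interior ratio of Xcr1 was 2.33 and 2.61 in CC075F1 and 0.349 and 1.37 in CC080F1. That of Clec9a was 1.79 and 2.23 against 1.01 and 0.642, and that of Batf3 was 1.26 and 1.53 against 0.680 and 0.963. The strain difference of the edge effect was not called for any of the 8 genes in edgeR, where 0.106% of all genes were. It was 0.63 for Batf3 (SE 0.22, adjusted p = 0.483), 0.42 for Irf8 (SE 0.13, adjusted p = 0.347) and 1.53 for Xcr1 (SE 0.71, adjusted p = 0.602). Without CC080F1 replicate 2 it was called for Batf3 (adjusted p = 0.0378) and Irf8 (adjusted p = 0.0475).

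**Figure D5:**
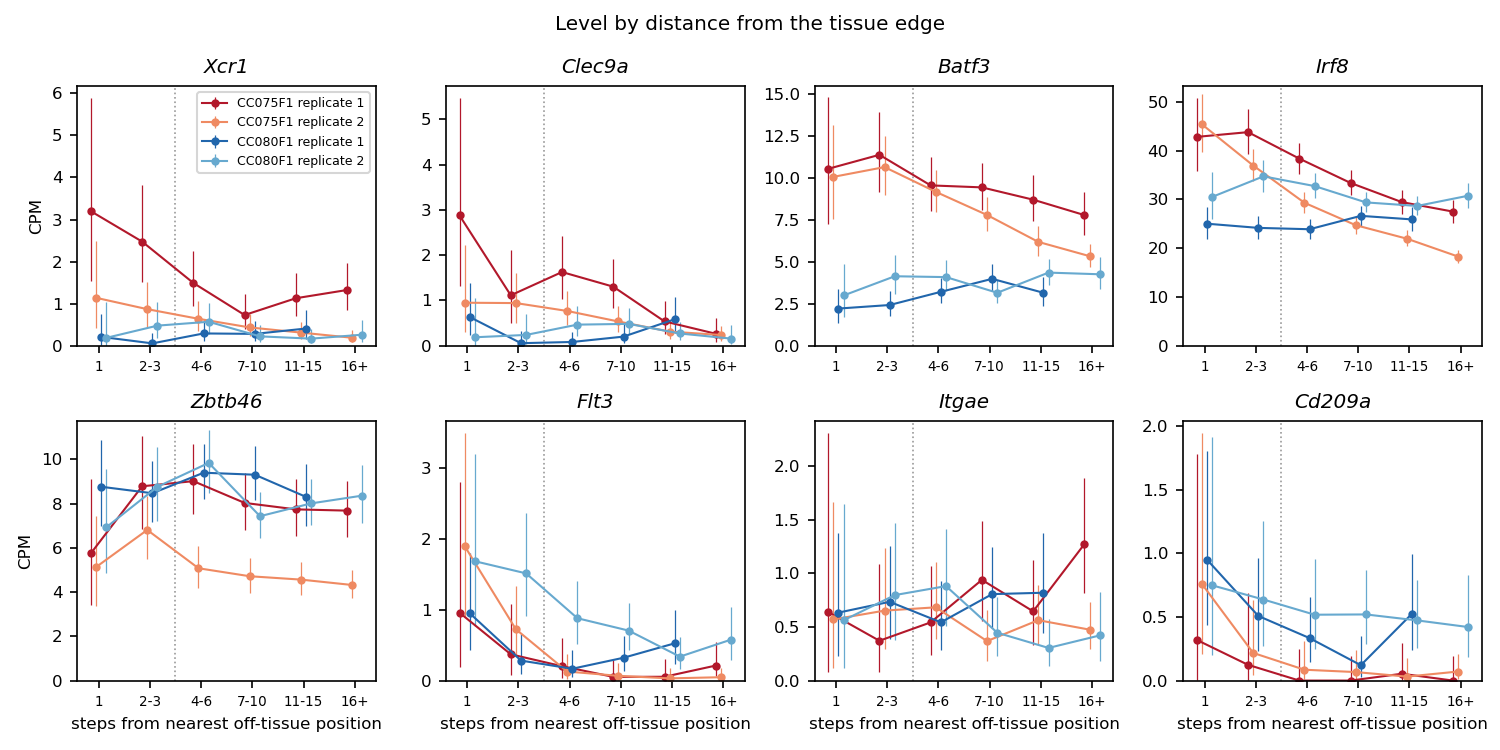
CPM of each gene by distance from the nearest off-tissue position, with exact 95% Poisson intervals, for bins of at least 20 spots. The dotted line parts edge from interior. Irf8 falls from 45.4 CPM at the first step to 18.3 CPM at 16 steps and beyond in CC075F1 replicate 2 and is near flat in CC080F1 replicate 1, from 24.2 CPM at 2 to 3 steps to 25.9 CPM at 11 to 15 steps.

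Other dendritic genes were also counted at the edge. Of the further cDC1 genes 2 of 11 were called higher there, Btla (log2 1.67) and Cd24a (1.46). Among type 2 genes 3 of 10 were, Ccl17 (1.79), Il1r2 (1.32) and Mgl2 (0.86), among migratory genes 2 of 9, Ccl22 (1.58) and Ccr7 (1.44), and among plasmacytoid genes 3 of 8, Siglech (2.48), Tcf4 (0.44) and Runx2 (0.39). Markers of other cells were called higher there too, in 5 of 7 monocyte (Chil3 1.23, Ly6c2 0.84), 5 of 7 fibroblast, 7 of 8 endothelial, 3 of 5 neutrophil, 2 of 10 T cell, 2 of 5 regulatory T cell and 0 of 10 macrophage genes. Skeletal muscle genes (3 of 6) had a median of 5.11 on the log2 scale in CC075F1 and -0.35 in CC080F1, and 3 of 6 were called for that strain difference. The part of these cells in the edge values of Flt3 and Irf8 was not tested. The calls of Flt3 and Irf8 stayed past the threshold without the spots rich in skin, muscle or fat markers.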

How the data were processed

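Fresh frozen sections of 4 tumors were processed with Visium by the authors, who used Space Ranger (1.3.1 in the file header) on GRCm38/mm10. The deposited values are raw UMI counts per gene and spot under tissue, with no normalization. Seurat 5.0.1 is also named in the submitters' processing notes. UMIs were summed per section, or per edge and interior of a section, for edgeR 4.0.16 (filterByExpr, TMM, quasi-likelihood), with the section as a block for the edge. Co-occurrence used log2((observed + 0.5)/(expected + 0.5)) in limma 3.58.1 (R 4.3.3), over genes with at least 1 expected UMI per section and 10 in all, and a threshold of 0.05. The members, lists and tests were chosen with earlier results of these data known. Alternatives included DESeq2 1.42.0, other scalings, filters, edge widths and depth strata, and leaving out each section. Named genes were the members, list genes and, per member, the 3 genes described above. Positions came from GENCODE vM21 and promoters from RefSeq on GRCm38.p6, with an entry for 7 of the 8 genes. One listed cDC1 gene, Cxx1b, had no row in the count table. The fits were tested on simulated data. Sections are biological replicates per the labels. The methods place sections of the 4 blocks on a Visium slide. What a replicate number shares between strains, and any library batch, is not given in the sources used here. One gene of the lists is not reported here.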

Additional observations from a re-analysis of the deposited data

Results flagged for a closer look

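In spots with Itgae, 3 of the genes from the marker lists or leading a member's spots under any depth matching had co-occurrence that differed between the strains by the test of the difference itself (CC075F1 minus CC080F1, limma, adjusted over 12164 genes). They are among the 20 genes called for that difference, and the depth matching was chosen after seeing the data. Cxcl9, an interferon-γ-induced chemokine, was above expectation by 0.320 and 0.247 on the log2 scale in CC075F1 and by 0.957 and 1.38 in CC080F1, a difference of -0.88 (SE 0.10, adjusted p = 1.7e-05). Ly6a, an interferon-responsive surface protein, stood at 0.0821 and 0.169 against 0.696 and 0.945, a difference of -0.69 (adjusted p = 0.000123). Cxcl10, a related chemokine, stood at 0.334 and 0.0133 against 0.549 and 0.786, a difference of -0.49 (adjusted p = 0.00785). These values rest on 64 and 71 Itgae spots in CC075F1 and 65 and 58 in CC080F1. With the planned minimum of 10 spots a depth class, which left 33, 37, 11 and 12 spots, the differences of Cxcl9, Ly6a and Cxcl10 were -1.92, -1.13 and -1.01.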

How the results depend on the processing

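Between strains, 14 genes were called in all, 40 with scaling by library size alone, 480 with no filter on low counts and 208 with DESeq2, and 11 to 207 when a section was left out. Of the 8 members 0 were called, 3 with no filter (Batf3, Xcr1 and Cd209a), 1 with DESeq2 (Batf3) and 0 to 1 when a section was left out. The labels do not say that a replicate number marks anything shared between the strains, and the deviations of same-numbered sections correlated at 0.165. With a replicate block on that number 287 genes and 1 member, Batf3, were called. At the edge 770 genes and 2 members were called, 1999 genes with no filter and 36 to 1326 without a section. The members called were 1 with an edge of 2 steps, 0 with 5 steps, and 0 to 2 without a section. For the strain difference of the edge 16 genes were called, 25 with an edge of 2 steps, 33 without spots rich in skin, muscle or fat markers, and 1 to 501 without a section, with 0 to 2 members. Of the ordered pairs of members 2 were called, 1 where a spot needed 2 UMIs of the gene, 1 in interior spots alone, and 1 to 3 without a section. Where 2 UMIs were needed, Batf3 and Itgae spots could not be tested, because CC080F1 replicate 1 had no usable depth class for them. Irf8 in Batf3 spots was thus untested there rather than lost. The causes of the other shifts were not tested. No direction reversed in a call. Leaving out a section leaves 1 in its strain, which the fits assume to vary like the others. Depth limits Xcr1, Clec9a, Flt3, Itgae and Cd209a, each at 3 to 112 UMIs a section.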
